A study of Mus musculus with 48 samples.

Results

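The liver response to a high fat diet (HFD) was measured in fasted p110αhep+/+ mice, the floxed mice that keep the catalytic subunit p110α of PI3Kα in their hepatocytes. Livers of 6 mice fed HFD were compared with livers of 6 mice fed a control diet (CTRL), which makes 12 of the 48 arrays in the series, chosen by their sample labels alone. All 12 were male, were 12 weeks old when the diets began, received HFD (60% of calories from fat) or CTRL for 12 weeks, and were then fasted for 24 h and killed at ZT16, that is 16 h after lights came on. Each array held RNA of the whole liver of 1 mouse. The other groups of 6 mice were fed p110αhep+/+ mice on each diet and p110αhep-/- mice, in which the floxed Pik3ca alleles are deleted by a Cre recombinase driven by the albumin promoter, so that other liver cells keep the gene.

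A fasted liver lives on fatty acids released from adipose tissue: it burns them through genes controlled by the nuclear receptor PPARα, makes ketone bodies and glucose, and stores the surplus fat in lipid droplets. With prolonged HFD, fat accumulates in hepatocytes (steatosis), and macrophages and matrix-producing stellate cells can respond. In mouse liver, several cytochrome P450 and transporter genes also differ between the sexes under the control of the growth hormone pattern.

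On the 48 arrays, 50.1% to 57.4% of probes exceeded background clearly, and no spot was saturated. The 12 hepatocyte markers were all measured, albumin (Alb) among the brightest genes, and 0 of the 12 rose or fell, although 2 passed limma's adjusted p without a fold threshold. Log2 signals below are those of the brightest probe of each gene after normalization, and differences are HFD minus CTRL with the standard error (SE) of the fit. A gene is said to have risen or fallen when its limma p, adjusted over all probes, was at most 0.05 and its fold change was over 1.5.

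HFD changed 577 of 20481 genes in fasted p110αhep+/+ liver. Of these, 373 rose, which is 1.82% of the genes tested, and 204 fell, which is 0.996%. These shares are the background for the counts of list members that rose or fell with HFD in these mice. With median scaling of the arrays in place of quantile normalization, the split was 321 higher and 272 lower. The median change of the 577 genes was 0.76 on the log2 scale without regard to sign, so most changes were under 2-fold, and 96 genes rose and 29 fell more than 2-fold. Without the fold threshold, 1841 genes (8.99%) were higher and 1444 (7.05%) lower at an adjusted p of at most 0.05. The 6 HFD and 6 CTRL livers did not overlap for 346 of the 577 genes, and for 1201 (5.86%) of all genes.

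Over all genes, the livers separated by diet on the first principal component, which held 33.9% of the variance. Scores were 17.55 ± 5.18 (SD, n = 6) on HFD and -17.55 ± 5.21 (SD, n = 6) on CTRL, with no overlap between the diets (exact permutation p = 0.00216, 2-sided, which is the lowest value possible with 6 against 6, and 0.00432 adjusted over 2 components). The second component held 15.3% of the variance, and its scores did not separate the diets (2-sided exact permutation p = 0.818).

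**Figure D1:**
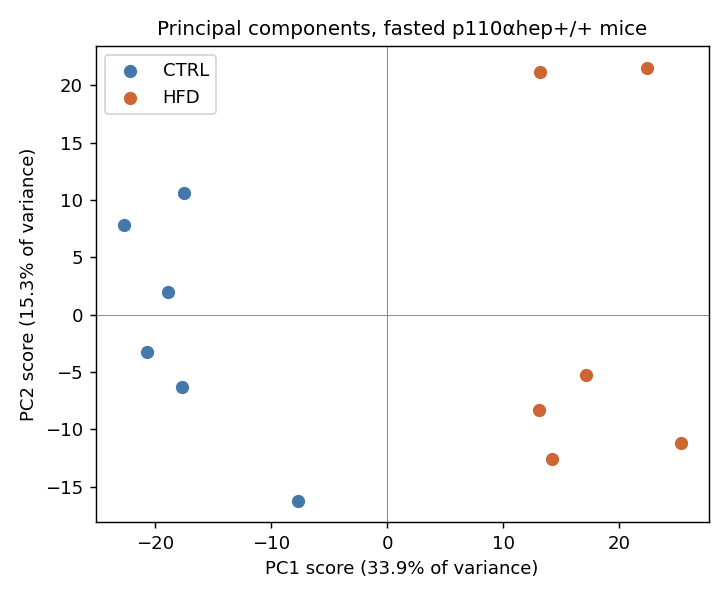
Scores of the 12 livers of fasted p110αhep+/+ mice on the first (x axis) and second (y axis) principal component of 20471 genes, 1 point per mouse. CTRL livers lie at -7.69 or below on the first component and HFD livers at 13.11 or above.

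Among the highest rises were those of the Cyp2b family, cytochromes P450 that metabolize drugs and steroids and that are classic targets of the nuclear receptor CAR. Cyp2b13 had log2 signals of 5.21 to 6.49 (median 5.74) on CTRL and 8.87 to 12.61 (median 11.11) on HFD, a rise of 4.91 ± 0.62 (SE, adjusted p = 5.73e-07). It was well above background on 2 of 6 CTRL arrays and on 6 of 6 HFD arrays, so the size of its rise rests in part on signals near background. Cyp2b9 went from 9.15 to 12.84 (median 10.98) on CTRL to 13.99 to 15.09 (median 14.77) on HFD, a rise of 3.57 ± 0.55 (adjusted p = 1.19e-05). Cyp2b10 had 8.90 to 12.37 (median 10.54) on CTRL and 13.53 to 14.71 (median 14.22) on HFD, a rise of 3.52 ± 0.52 (adjusted p = 7.35e-06). For each of the 3 genes every HFD liver was above every CTRL liver, while the highest and lowest CTRL livers were 3.69 apart for Cyp2b9. All 3 passed the test within each of the 2 washing batches (3 against 3). The 3 genes are close in sequence, so their probes may share signal, and the second probe of Cyp2b10 gave a rise of 1.13.

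These P450s also head a list of female-biased genes, whose expression is normally higher in female than in male liver. Of 25 measured members, 6 rose and 0 fell in these males, against 1.82% and 0.996% of all genes, and the list's median was 0.27 against -0.02 for all genes. One of the 6, Hao2, met the filter on dim probes in HFD groups only, so it had to be higher on HFD to be measured, and 5 rose without it. With only the probes above background on all arrays, the list's median was 0. The other members that rose were the organic anion transporter Slc22a27 (2.55 ± 0.25, adjusted p = 2.04e-09), the peroxisomal hydroxyacid oxidase Hao2 and the flavin monooxygenase Fmo2 (0.76 ± 0.24, adjusted p = 0.0246). Slc22a27 had 5.23 to 6.07 on CTRL, where 2 of 6 arrays were well above background, and 7.28 to 8.88 on HFD. Hao2 was not well above background in any CTRL liver and was so in 5 of 6 HFD livers, at least 2.82-fold higher (adjusted p = 3.05e-05). A neighbouring family member, Slc22a29, had 5.11 to 5.80 on CTRL, where 2 of 6 arrays were well above background, and 6.62 to 8.27 on HFD, and it too met the filter in HFD groups only. The call for Fmo2 was lost in 4 of the 12 fits that left out 1 array, namely HFD replicate 3 or 4 or CTRL replicate 1 or 4, with changes of 0.64 to 0.67. Fmo2 passed in neither washing batch (adjusted p = 0.251 and 0.108), and Hao2 did not pass within batch 1 (adjusted p = 0.0867).

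Male-biased genes went the other way. Of 29 measured, 6 fell and 0 rose, against 0.996% and 1.82% of all genes, with a median of -0.27. Hsd3b5, a steroid-metabolizing enzyme of male liver, had 11.48 to 13.46 (median 12.74) on CTRL and 5.13 to 11.15 (median 9.23) on HFD, a change of -3.86 ± 0.70 (adjusted p = 0.000158) whose size rests in part on signals near background, since 5 of 6 HFD arrays were well above it. The organic anion uptake transporter Slco1a1 had 11.37 to 12.29 (median 11.73) on CTRL and 6.37 to 11.21 (median 10.68) on HFD (-1.83 ± 0.44, adjusted p = 0.00337). HFD replicate 5 was the lowest of the 6 HFD livers for Hsd3b5 and Slco1a1 and the highest for Cyp2b13, Cyp2b9 and Cyp2b10. Within washing batch 1 (3 against 3) neither passed, with changes of -2.49 for Hsd3b5 (adjusted p = 0.054) and -0.73 for Slco1a1 (adjusted p = 0.336). Slco1a1 also did not pass when only these 12 arrays were fitted (-1.84, adjusted p = 0.0759). The arachidonic acid hydroxylases Cyp4a12a (-1.47 ± 0.34, adjusted p = 0.00239) and Cyp4a12b (-1.54 ± 0.35, adjusted p = 0.00176) fell together, but their transcripts are near-identical and may share signal, and within washing batch 1 neither passed (-1.13 and -1.11, adjusted p = 0.131 and 0.143). Ugt2b1, a glucuronosyltransferase, fell by 0.71 on the log2 scale (adjusted p = 0.000296), a call lost within washing batch 2 (-0.66, adjusted p = 0.0547). Cyp7b1, an oxysterol hydroxylase, changed by -0.76 ± 0.25 (adjusted p = 0.0311), a call lost in 6 of the 12 fits without 1 array (HFD replicate 4 or 5, CTRL replicate 1, 3, 4 or 5, with changes of -0.74 to -0.58) and within either washing batch (adjusted p = 0.0908 and 0.235).

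**Figure D2:**
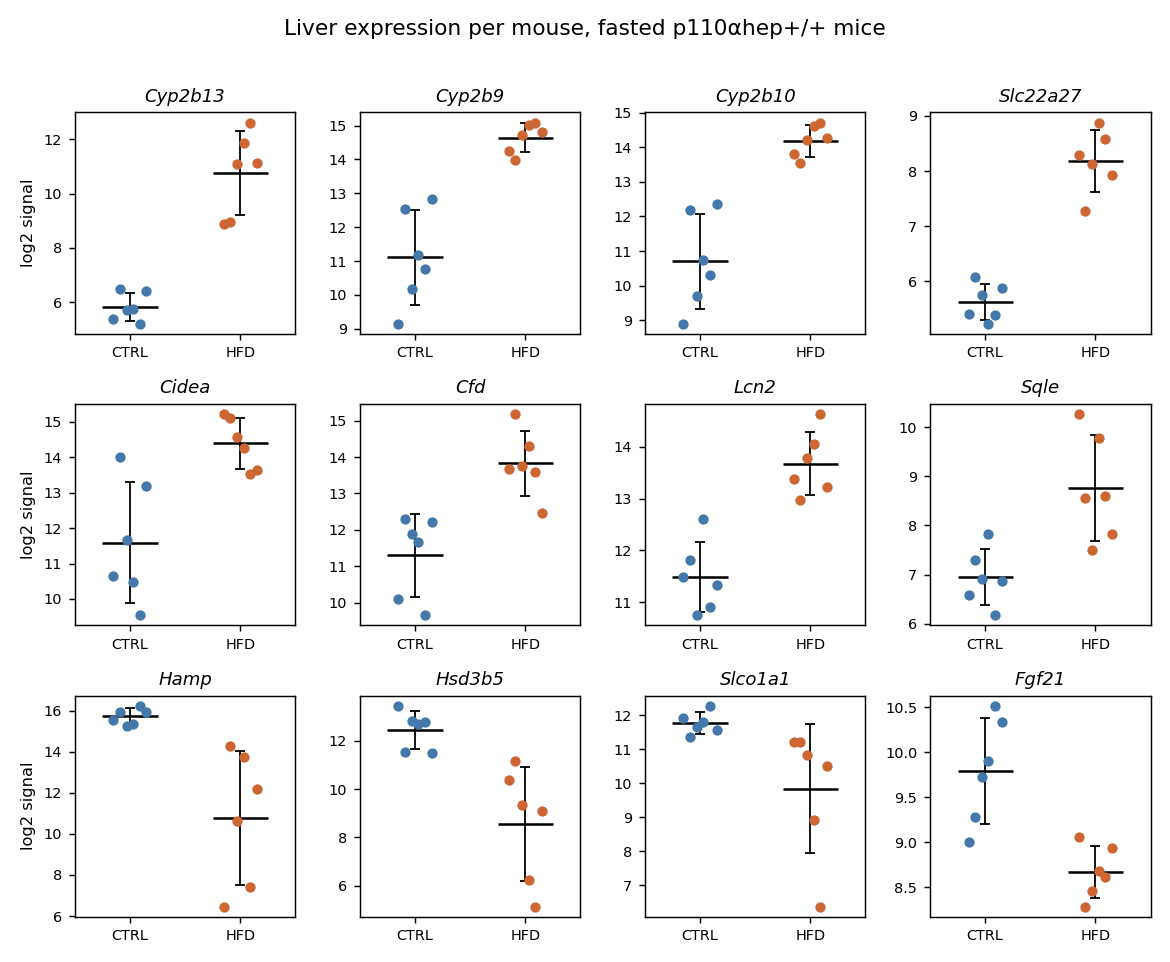
Log2 signal (y axes) of 12 genes in each of 6 CTRL and 6 HFD livers of fasted p110αhep+/+ mice, with the mean (line) and SD (bars). Each point is 1 mouse. The HFD livers are all above the CTRL livers for Cyp2b13, Cyp2b9, Cyp2b10, Slc22a27, Cfd and Lcn2 and all below for Hamp, Hsd3b5 and Slco1a1, whereas Cidea, Sqle and Fgf21 overlap.

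Among other genes of detoxification, 4 glutathione S-transferases of the Gstm cluster rose. Gstm2 rose 2.38-fold (1.25 ± 0.16, adjusted p = 9.02e-07), and Gstm1, Gstm3 and Gstm4 rose by 0.87 to 0.89. No HFD liver overlapped a CTRL liver for any of the 4, although these paralogs may share signal. Of 30 measured CAR and PXR targets, 7 rose, 0 fell, and the median was 0.22. Among the 7 were Cyp2b13, Cyp2b9, Cyp2b10, Gstm2, Gstm3 and Gstm4, described above, so the count is not separate from them. Of 22 measured targets of NRF2 and AHR, which answer to oxidants and aromatic compounds, 3 rose and 0 fell (median 0.14). They were the carbonyl reductase Cbr3 (1.08 ± 0.17, adjusted p = 1.91e-05), the quinone reductase Nqo1 (0.63 ± 0.17, adjusted p = 0.00838) and the glutathione peroxidase Gpx3 (0.62 ± 0.16, adjusted p = 0.00658). Nqo1 dropped under the fold threshold without HFD replicate 3 or 4 or CTRL replicate 4 (0.55 to 0.56), and Gpx3 without HFD replicate 2 or 3 or CTRL replicate 1 or 4 (0.51 to 0.58). Nqo1 did not pass within washing batch 1 (adjusted p = 0.174), nor Gpx3 within batch 2 (adjusted p = 0.305).

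Lipid storage genes changed selectively. Of 20 measured lipid droplet proteins, 3 rose and 1 fell, with a median of 0.05. Cidea, which enlarges lipid droplets and is a marker of brown fat, had 9.54 to 14.00 (median 11.16) on CTRL and 13.54 to 15.22 (median 14.42) on HFD, a rise of 7.79-fold (2.96 ± 0.47, adjusted p = 1.93e-05). CTRL replicate 2 was within the HFD range. Cidec (Fsp27), which fuses lipid droplets, had 12.07 to 13.49 on CTRL and 13.51 to 14.65 on HFD (1.36 ± 0.40, adjusted p = 0.0179), a call lost without CTRL replicate 3 (1.23, adjusted p = 0.0582), within washing batch 1 (1.97, adjusted p = 0.0765) and batch 2 (0.76, adjusted p = 0.328), with no filter on dim probes (adjusted p = 0.0527) and with no array weights (adjusted p = 0.0592). The droplet coat protein Plin4 rose 2.00-fold (1.00 ± 0.27, adjusted p = 0.00878), while Plin2, the main droplet coat of hepatocytes, had medians of 15.24 on CTRL and 15.19 on HFD (0.00 ± 0.18, adjusted p = 0.993). Plin1 was at 5.24 to 5.71, near background, on both diets. G0s2, an inhibitor of the triglyceride lipase ATGL, fell by 1.15 on the log2 scale (adjusted p = 0.0318), a call lost without HFD replicate 1, 2 or 6 or CTRL replicate 3, 5 or 6 (-1.12 to -1.05) and within either washing batch (adjusted p = 0.173 and 0.152). Plin4 did not pass within washing batch 2 (0.67, adjusted p = 0.238).

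Of 18 measured genes of fatty acid uptake and binding, 3 rose and 0 fell, with a median of 0.04. Vldlr, the receptor for very low density lipoprotein, had 6.62 to 7.96 on CTRL and 8.25 to 9.34 on HFD (1.53 ± 0.25, adjusted p = 3.52e-05). The fatty acid transporter Cd36 had 10.37 to 11.25 and 11.55 to 11.89 (1.05 ± 0.24, adjusted p = 0.00169). Fabp4, a fatty acid binding protein of adipocytes and macrophages, had 9.94 to 10.62 and 11.21 to 12.13 (1.15 ± 0.28, adjusted p = 0.00429). The 3 genes did not overlap between diets, whereas Fabp1, the abundant binding protein of hepatocytes, was at medians of 18.33 and 18.31 (-0.02 ± 0.04, adjusted p = 0.803), a range in which quantile normalization leaves bright probes little room to differ. Within washing batch 2, Cd36 (0.82, adjusted p = 0.0834) and Fabp4 (0.88, adjusted p = 0.173) did not pass. Of 22 genes of triglyceride and phospholipid synthesis, the monoacylglycerol acyltransferase Mogat1 rose (1.30 ± 0.25, adjusted p = 0.000372) and no other passed. Gpam, which catalyses the first step, changed by 0.10 ± 0.15 (adjusted p = 0.699).

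Several adipocyte markers were among these genes. Of 9 measured, 4 rose and 0 fell, with a median of 0.41. A negative change was seen in 4, and 1 of them passed limma's adjusted p without the fold threshold. Those that rose were Cidea, Fabp4, the complement factor adipsin (Cfd) and the nuclear receptor Pparg, which drives fat storage. Cfd had 9.65 to 12.29 (median 11.78) on CTRL and 12.45 to 15.18 (median 13.71) on HFD, a rise of 6.47-fold (2.69 ± 0.62, adjusted p = 0.00203). Pparg had 10.08 to 10.87 and 10.90 to 11.63 (0.82 ± 0.18, adjusted p = 0.00119). Within washing batch 2, Cfd (adjusted p = 0.0698) and Pparg (adjusted p = 0.0518) did not pass. Leptin (Lep) was at medians of 7.25 and 7.20, and resistin (Retn) at 5.70 on both diets. The summed signal of the 9 markers was 16.63 to 17.10 on CTRL and 17.01 to 17.96 on HFD, and its part in these rises was not tested. In whole liver, more cells of a type cannot be told apart from more RNA per cell.

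Targets of PPARα, which drives fatty acid oxidation in fasting, fell more often than they rose. Of 40 measured, 1 rose and 4 fell, and 28 had a negative change (median -0.11). Fgf21, a hepatokine of fasting, had 9.0 to 10.52 (median 9.81) on CTRL and 8.28 to 9.06 (median 8.64) on HFD, a fall of 1.22 on the log2 scale (adjusted p = 0.000232), although within washing batch 1 it did not pass (-0.91, adjusted p = 0.111). Txnip, an inhibitor of thioredoxin and glucose uptake, fell by 0.85 (adjusted p = 0.000476) with no overlap between the diets. The fatty acid hydroxylase Cyp4a10 (-0.81 ± 0.23, adjusted p = 0.0153) and the peroxisomal enzyme Ehhadh (-0.70 ± 0.17, adjusted p = 0.00366) fell too. Without CTRL replicate 5 both of these calls were lost (Cyp4a10 -0.68, Ehhadh -0.53), and that of Ehhadh also without CTRL replicate 6 (-0.57). Cyp4a10 passed in neither washing batch (adjusted p = 0.145 and 0.0764), Ehhadh did not pass within batch 1 (adjusted p = 0.266) and Txnip not within batch 2 (adjusted p = 0.145). The rise was in Ucp2, a mitochondrial carrier (0.65 ± 0.09, adjusted p = 4.7e-06). Cpt1a, which controls fatty acid entry into mitochondria, changed by -0.07 ± 0.09 (adjusted p = 0.63).

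In fed p110αhep+/+ mice the same list moved differently: 12 of 40 rose and 0 fell with HFD, against 2.63% of all genes rising and 1.08% falling. The difference between the fasted and the fed HFD effect passed its own test for 10 of the 40, each time lower in the fasted comparison, while over all genes the difference was higher for 61 (0.298%) and lower for 121 (0.591%). Fgf21 rose in fed mice by 1.14 ± 0.23 and the difference was -2.35 ± 0.32 (adjusted p = 1.99e-05). Differences were -1.25 ± 0.33 for Cyp4a10 (adjusted p = 0.0315), -1.03 ± 0.24 for Ehhadh (adjusted p = 0.0139) and -0.97 ± 0.24 for Txnip (adjusted p = 0.0208). In fasted p110αhep-/- mice, 0 of the 40 rose and 9 fell (median -0.34), against 0.928% and 0.967% of all genes, among them Fgf21 (-1.75 ± 0.25, adjusted p = 3.35e-06) and Ehhadh (-1.38 ± 0.18, adjusted p = 1.62e-06). The difference between genotypes passed for 4 of the 40, each higher in p110αhep+/+, and not for Fgf21 (adjusted p = 0.38) or Ehhadh (adjusted p = 0.0999). Plin2 rose by 1.01 in fed mice and changed by 0.00 in fasted mice, a difference of -1.0 ± 0.25 (adjusted p = 0.0208).

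Cholesterol synthesis genes rose. They are under the control of SREBP-2, a transcription factor activated when membranes are low in sterol. Of 25 measured, 9 rose and 0 fell, 23 had a positive change, and the median was 0.47, against 1.82% of all genes rising and a median of -0.02 over all genes. Sqle, squalene epoxidase, had 6.17 to 7.83 (median 6.88) on CTRL and 7.51 to 10.27 (median 8.59) on HFD, a rise of 3.54-fold (1.82 ± 0.41, adjusted p = 0.00152). Fdps, farnesyl diphosphate synthase, had 10.71 to 11.65 (median 11.27) and 12.18 to 13.79 (median 12.27), a rise of 1.42 ± 0.22 (adjusted p = 1.84e-05), although near-identical gene copies may share its probe. Hmgcs1, an early enzyme of the pathway, had 12.06 to 12.63 and 12.83 to 14.05 (1.08 ± 0.17, adjusted p = 1.59e-05), but its second probe gave 0.23. The call for Sqle was lost within washing batch 2 (2.11, adjusted p = 0.0566). The diets did not overlap for Fdps and Hmgcs1, and they overlapped for Sqle.

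Enzymes along the pathway rose by smaller amounts: Msmo1 by 1.07 ± 0.18 (adjusted p = 7.44e-05), Nsdhl by 0.84 ± 0.18 (adjusted p = 0.000849, second probe 0.41) and the isomerase Idi1 by 0.84 ± 0.23 (adjusted p = 0.0111). The call of Idi1 was lost without HFD replicate 4 (0.71, adjusted p = 0.0523) and within washing batch 1 (1.06, adjusted p = 0.0661) and batch 2 (0.56, adjusted p = 0.348). Cyp51 (0.72 ± 0.19, adjusted p = 0.00768) and Mvk (0.61 ± 0.15, adjusted p = 0.00427), named after their values were seen, rose too. The call of Mvk was lost in 6 of the 12 fits without 1 array (HFD replicate 1, 2 or 4, CTRL replicate 3, 5 or 6, with changes of 0.50 to 0.57), and within washing batch 1 neither passed (Cyp51 0.65, Mvk 0.57), nor did Msmo1 (0.93, adjusted p = 0.0666) and Nsdhl (0.72, adjusted p = 0.117).

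The promoters of this list of cholesterol synthesis genes and SREBP-2 targets were searched for motifs. The motifs may not be independent of how the list was chosen. RefSeq promoter windows (GRCm38.p6) were found for 17 of the 25 genes, and the 250 bases before the start held a CCAAT box (CCAAT, or ATTGG on the other strand) in 17 of 17, among them 6 of the 6 that rose with a window and 11 of the 11 that did not pass. Over 27025 genes with a window, 37.5% held one. The sterol element searched as TCACNCCAC on both strands was in 1 of 17, Hmgcs1, against 1.22% of all genes. The windows of 3 genes that rose are shown 5′ to 3′ on the gene's strand because they carry these motifs, in capitals: chr13:119690101-119690350 (plus strand) for Hmgcs1, with 3 CCAAT boxes and the sterol element, chr8:64733579-64733828 (minus strand) for Msmo1, with 3, and chr13:8885356-8885605 (plus strand) for Idi1, with 2. A match describes the letters and shows no binding.
Hmgcs1: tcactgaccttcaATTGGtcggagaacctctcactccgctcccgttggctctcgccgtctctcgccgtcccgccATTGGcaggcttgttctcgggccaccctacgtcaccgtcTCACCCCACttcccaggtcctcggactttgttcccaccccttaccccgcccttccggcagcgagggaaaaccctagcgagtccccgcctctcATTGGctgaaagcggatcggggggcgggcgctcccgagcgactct
Msmo1: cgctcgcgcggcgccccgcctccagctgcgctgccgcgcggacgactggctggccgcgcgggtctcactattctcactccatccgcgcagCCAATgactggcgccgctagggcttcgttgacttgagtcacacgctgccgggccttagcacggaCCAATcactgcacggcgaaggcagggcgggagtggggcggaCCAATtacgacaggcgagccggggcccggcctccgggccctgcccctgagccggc
Idi1: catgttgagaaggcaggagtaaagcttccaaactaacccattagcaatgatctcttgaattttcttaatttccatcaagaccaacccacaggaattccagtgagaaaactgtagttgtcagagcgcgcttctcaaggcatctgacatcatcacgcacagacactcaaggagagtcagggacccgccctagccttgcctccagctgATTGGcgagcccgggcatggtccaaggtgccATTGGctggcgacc

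The 2 other HFD comparisons gave other counts for these genes. In fed p110αhep+/+ mice, 1 of 25 rose (Hmgcs1, 1.19 ± 0.17) and the median was 0.08. The difference between the fasted and the fed effect passed its own test for 2 of the 25, each higher in fasted mice. Over all genes it was higher for 0.298% and lower for 0.591%. In fasted p110αhep-/- mice, 0 rose and 5 fell, with a median of -0.37, against 0.928% of all genes rising and 0.967% falling. The difference between genotypes passed its own test for 13 of the 25, each higher in p110αhep+/+, where 1.32% of all genes were higher and 0.566% lower. For Sqle the effect in fasted p110αhep+/+ mice was higher than in fed ones by 2.25 ± 0.57 (adjusted p = 0.0248) and higher than in fasted p110αhep-/- mice by 2.54 ± 0.59 (adjusted p = 0.00921), where Sqle was well above background on 1 of 6 HFD arrays. For Fdps the differences were 1.74 ± 0.31 (adjusted p = 0.00109) and 1.93 ± 0.33 (adjusted p = 0.000425). For Msmo1, Idi1 and Nsdhl the difference between genotypes was 1.39, 1.24 and 1.21 (adjusted p = 0.00207, 0.0264 and 0.00447), and that between nutritional states did not pass (adjusted p = 0.144 to 0.336).

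**Figure D3:**
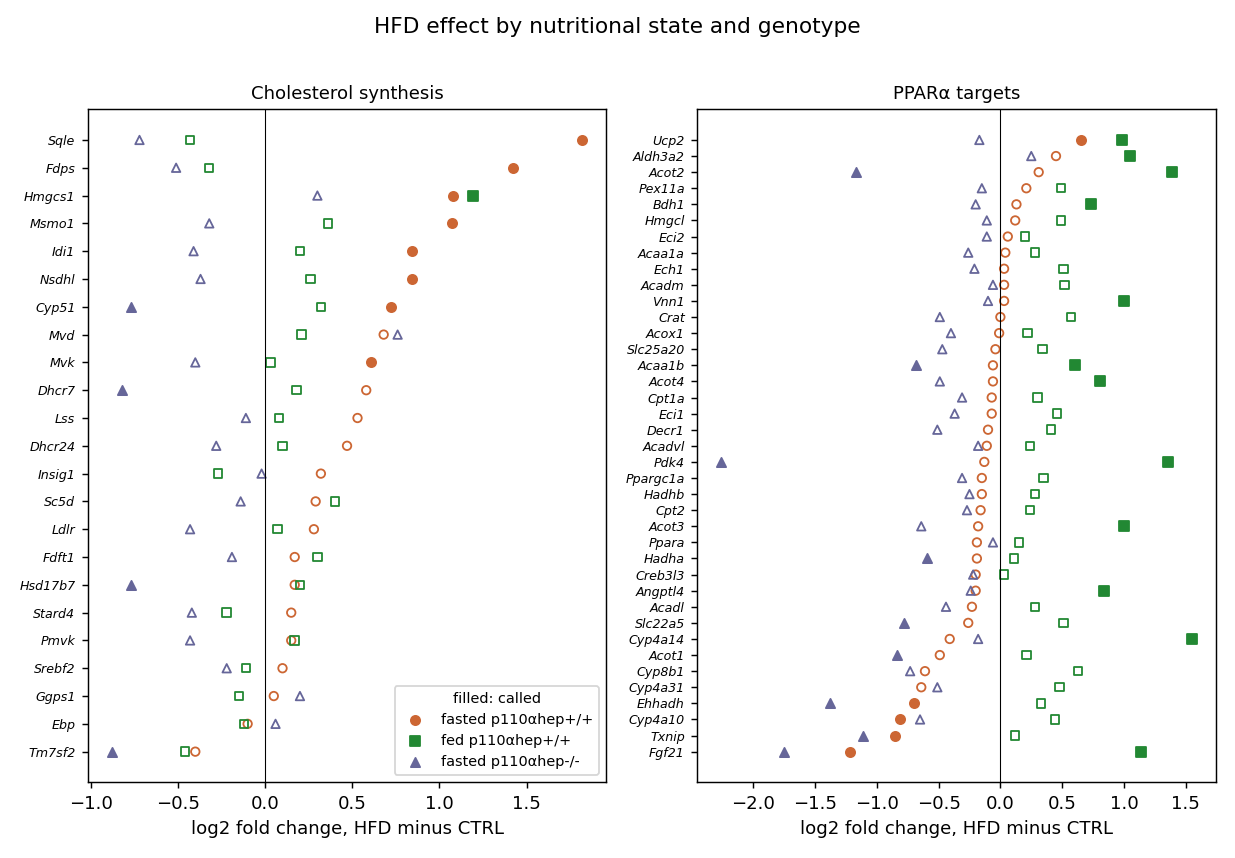
HFD effect (x axes, log2 fold change) on each gene shown (y axes) of cholesterol synthesis (left, 23 of the 25 genes) and of the PPARα target list (right, 39 of the 40) in fasted p110αhep+/+, fed p110αhep+/+ and fasted p110αhep-/- mice, 6 against 6 mice each. Filled points passed the test. In cholesterol synthesis 8 points of fasted p110αhep+/+ mice are filled, all above 0, and in the PPARα list 12 points of fed p110αhep+/+ mice, all above 0, and 9 of fasted p110αhep-/- mice, all below 0, are filled.

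Of 24 measured genes of fatty acid synthesis, 2 rose and 1 fell (median 0.22). Thrsp (Spot 14), a lipogenic protein, rose by 1.28 ± 0.31 (adjusted p = 0.00323). The transketolase Tkt rose by 0.62 ± 0.11 (adjusted p = 7.56e-05, second probe 0.04) and the elongase Elovl2 fell by 0.60 (adjusted p = 0.000513), each close to the fold threshold. Tkt dropped under it without HFD replicate 1 or 4 or CTRL replicate 5 (0.52 to 0.58), and Elovl2 without HFD replicate 2, 3 or 5 or CTRL replicate 4 or 5 (-0.58 to -0.56). Within washing batch 1, Thrsp (0.89, adjusted p = 0.137), Tkt (0.52, under the fold threshold) and Elovl2 (-0.51, adjusted p = 0.069) did not pass. Acly and Acaca, the enzymes that make acetyl-CoA and malonyl-CoA, changed by -0.08 ± 0.15 and 0.05 ± 0.12 (adjusted p = 0.761 and 0.824). Scd1, the stearoyl-CoA desaturase, changed by -0.02 ± 0.24 in these mice and by -2.19 ± 0.25 in fasted p110αhep-/- mice (difference 2.17 ± 0.35, adjusted p = 0.000286).

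**Figure D4:**
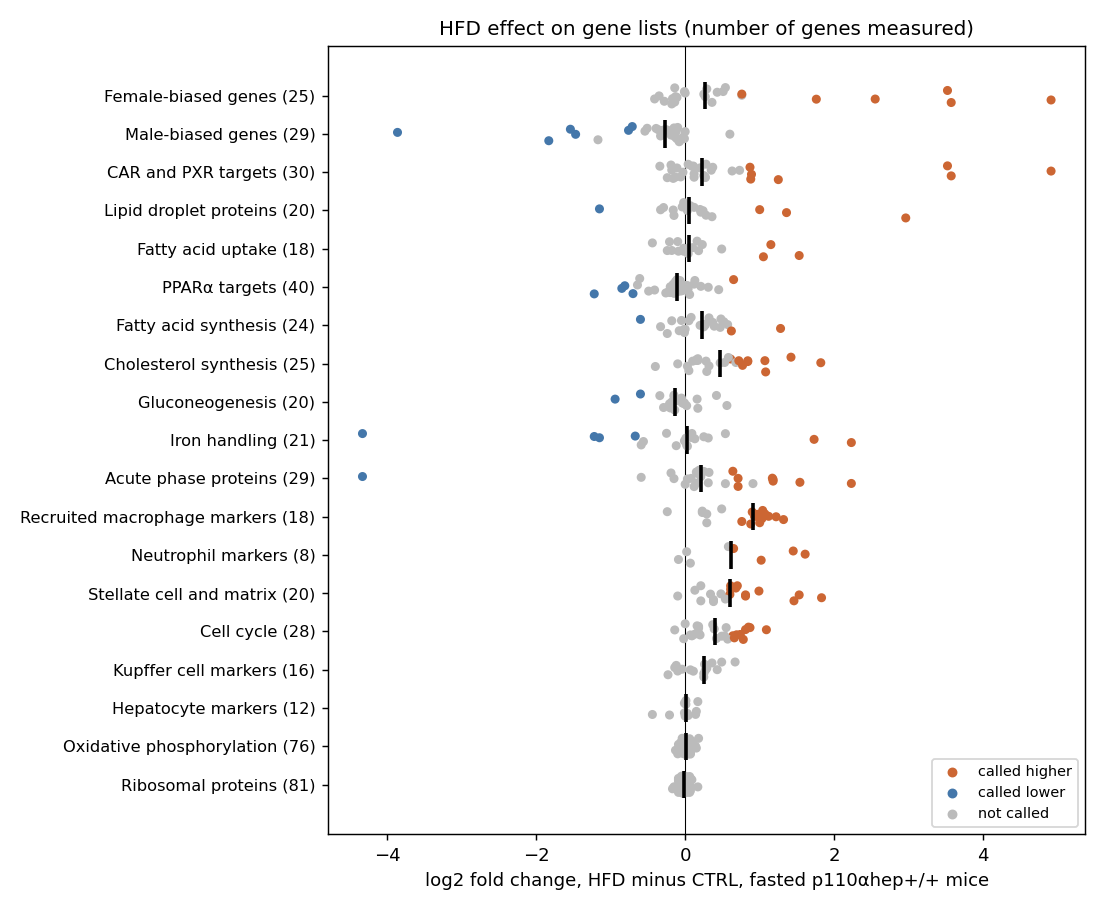
Log2 fold change (x axis, HFD minus CTRL, fasted p110αhep+/+ mice) of every measured member of 19 gene lists (y axis, number measured in brackets). Points are genes, coloured by call, and bars are list medians. The medians lie between -0.27 (male-biased genes) and 0.92 (recruited macrophage markers), and hepatocyte markers, oxidative phosphorylation and ribosomal proteins have no called gene.

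Genes of glucose metabolism changed in both directions. Ppp1r3g, a glycogen-targeting subunit of protein phosphatase 1, had 8.40 to 9.65 (median 9.17) on CTRL and 7.23 to 8.09 (median 7.55) on HFD, a fall of 2.76-fold (-1.46 ± 0.30, adjusted p = 0.000674). Of 27 genes of glucose uptake, glycolysis and glycogen, 2 rose and 1 fell (median 0.15), against 1.82% and 0.996% of all genes. The risers were hexokinase 2 (Hk2, 0.79 ± 0.16, adjusted p = 0.000412) and pyruvate kinase M (Pkm, 0.73 ± 0.10, adjusted p = 1.59e-06), isoforms that are minor in hepatocytes. The other probes of Pkm gave changes down to 0.29. Of 20 gluconeogenic genes, 0 rose and 2 fell (median -0.13). The aspartate aminotransferase Got1 fell by 0.94 on the log2 scale (adjusted p = 0.00359). Within washing batch 2, Ppp1r3g (-1.13, adjusted p = 0.168), Hk2 (0.66, adjusted p = 0.0616) and Got1 (-0.84, adjusted p = 0.0741) did not pass. G6pc, glucose-6-phosphatase, changed by -0.60 ± 0.20 (adjusted p = 0.0406), a call lost in 8 of the 12 fits without 1 array (HFD replicate 1, 4, 5 or 6, CTRL replicate 1, 2, 3 or 4, with changes of -0.61 to -0.49) and within either washing batch (adjusted p = 0.16 and 0.495). Pck1, the phosphoenolpyruvate carboxykinase, changed by -0.34 ± 0.20 (adjusted p = 0.26) and its mitochondrial form Pck2 by 0.42 ± 0.16 (adjusted p = 0.0674). In fed mice G6pc and Pck1 rose by 0.83 and 0.89, and the differences from the fasted effect were -1.43 ± 0.29 (adjusted p = 0.0036) and -1.23 ± 0.28 (adjusted p = 0.0123).

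In the insulin and IGF axis, 0 of 28 genes rose and 1 fell, against 1.82% and 0.996% of all genes, so the count says nothing particular of the list. Igfbp2, an IGF binding protein, had 14.07 to 14.76 (median 14.29) on CTRL and 12.70 to 14.22 (median 13.07) on HFD, a fall of 1.23 on the log2 scale (adjusted p = 4.95e-06). In fasted p110αhep-/- mice it changed by 0.16 ± 0.19, and the difference between genotypes was -1.38 ± 0.26 (adjusted p = 0.00142). The insulin receptor Insr (-0.08 ± 0.07, adjusted p = 0.476) and Pik3ca (-0.09 ± 0.08, adjusted p = 0.475) did not pass. Irs1, the insulin receptor substrate, changed by -0.50 ± 0.10 (adjusted p = 0.000458), under the fold threshold.

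The deepest fall of any gene that passed was in Hamp, which encodes hepcidin, the liver hormone that blocks iron export from cells. Hamp had 15.27 to 16.24 (median 15.75) on CTRL and 6.45 to 14.29 (median 11.41) on HFD, a fall of 20.2-fold (-4.33 ± 1.12, adjusted p = 0.00616). All 6 HFD livers were below all CTRL livers, but they spread over 7.84 on the log2 scale, from 6.45 in replicate 1 and 7.4 in replicate 5 to 13.76 in replicate 4 and 14.29 in replicate 2. Hamp did not pass within washing batch 1 (-3.98, adjusted p = 0.246). Hepcidin is controlled by BMP and SMAD signalling and by IL-6 and STAT3. Of 21 measured genes of iron handling, 2 rose and 4 fell (median 0.02). The falls besides Hamp were of the transcriptional regulator Id1 (-1.22 ± 0.27, adjusted p = 0.00156), Atoh8 (-1.15 ± 0.16, adjusted p = 1.89e-06) and the inhibitory Smad7 (-0.67 ± 0.14, adjusted p = 0.000896). Within washing batch 1, Id1 (-1.06, adjusted p = 0.148) and Smad7 (-0.51, adjusted p = 0.138) did not pass. Id2, a relative of Id1, fell by 1.26 (adjusted p = 0.0001).

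Tfrc, the transferrin receptor for iron uptake, rose 3.31-fold, from 6.75 to 8.12 (median 7.42) on CTRL to 8.46 to 9.71 (median 9.36) on HFD (1.73 ± 0.28, adjusted p = 3.13e-05). Hamp2, the neighbouring copy of Hamp, changed by -0.59 ± 0.81 (adjusted p = 0.666), and by 0.09 without HFD replicate 1. The fall of Hamp was also seen in fed p110αhep+/+ mice (-3.37 ± 1.1, adjusted p = 0.0234) and in fasted p110αhep-/- mice (-8.26 ± 1.20, adjusted p = 5.88e-06), where 3 of 6 HFD arrays were well above background, so the size there is uncertain. Neither difference passed its test (adjusted p = 0.822 and 0.155). The 250 bases before the Hamp start (GRCm38.p6, chr7:30944030-30944279, minus strand) are shown for 2 motifs of those pathways, in capitals: GGCGCC, the core of a BMP element, and the STAT-type motif TTCNNNGAA, which do not overlap. Of all windows, 10.8% hold the first and 8.13% the second on either strand.
Hamp: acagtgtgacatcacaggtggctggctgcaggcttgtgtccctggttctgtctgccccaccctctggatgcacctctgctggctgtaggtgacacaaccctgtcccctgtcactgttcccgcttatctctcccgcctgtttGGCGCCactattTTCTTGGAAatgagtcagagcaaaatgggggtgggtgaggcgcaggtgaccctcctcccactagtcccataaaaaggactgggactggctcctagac

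Of 29 measured acute phase proteins, which the liver secretes in inflammation, 8 rose and 1 (Hamp) fell, with a median of 0.21. Lcn2, lipocalin 2, which binds bacterial siderophores, had 10.75 to 12.61 (median 11.41) on CTRL and 12.98 to 14.63 (median 13.58) on HFD, a rise of 4.68-fold (2.23 ± 0.32, adjusted p = 3.83e-06). The orosomucoid Orm3 rose by 1.54 ± 0.25 (adjusted p = 4e-05) and serum amyloid Saa3 by 1.18 ± 0.23 (adjusted p = 0.000317), each with no overlap. Within washing batch 1, Lcn2 (1.56, adjusted p = 0.101), Orm3 (0.90, adjusted p = 0.0972) and Saa3 (1.07, adjusted p = 0.0609) did not pass, and neither did Saa3 within batch 2 (1.16, adjusted p = 0.0542). Saa1 and Saa2, whose probes may share signal, changed by 1.17 ± 0.36 and 1.18 ± 0.36 (adjusted p = 0.0207 and 0.0213), and CTRL replicate 1 lay within the HFD range and CTRL replicate 4 above it. Within washing batch 1 their changes were 0.09 and 0.12, and neither passed when only these 12 arrays were fitted (adjusted p = 0.123 and 0.126). The calls of Saa1 and Saa2 were lost without CTRL replicate 3, 5 or 6, with changes of 0.87 to 1.00.

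Markers of recruited and lipid-associated macrophages, cells that enter the steatotic liver and take up lipid, rose. Of 18 measured, 12 rose and 0 fell, with a median of 0.92. Of these 12, Gpnmb and Mmp12 met the filter on dim probes in HFD groups only, so they had to be higher on HFD to be measured, and 10 rose without them. Gpnmb had 5.02 to 6.08 on CTRL, where 2 of 6 arrays were well above background, and 6.13 to 7.43 on HFD. The monocyte antigen Ly6c2 had 10.51 to 11.10 and 11.68 to 12.39 (1.22 ± 0.16, adjusted p = 6.11e-07), and the integrin Itgax (CD11c) had 6.45 to 7.31 and 7.73 to 8.38 (1.12 ± 0.20, adjusted p = 0.000152). These genes did not overlap between the diets. The lipid receptor Trem2 rose by 1.07 ± 0.27 (adjusted p = 0.00556) and the chemokine receptor Cx3cr1 by 1.04 ± 0.22 (adjusted p = 0.000769). The metalloelastase Mmp12 had 5.11 to 5.43 on CTRL, where 1 of 6 arrays was well above background, and 5.77 to 6.76 on HFD. Within washing batch 2 the list's median was 0.67, and Trem2 (0.81, adjusted p = 0.125), Cx3cr1 (0.66, adjusted p = 0.128) and Itgax (0.78, adjusted p = 0.0669) did not pass. The summed signal of the 18 markers was 16.02 to 16.23 on CTRL and 16.35 to 16.61 on HFD. Of 16 markers of Kupffer cells, the resident macrophages, 0 rose or fell (median 0.25, 11 positive), and 1 passed limma's adjusted p without a fold threshold. Their surface antigen Adgre1 changed by 0.07 ± 0.20 (adjusted p = 0.838) and Clec4f by -0.10 ± 0.12 (adjusted p = 0.642). The summed Kupffer cell signal overlapped between diets, at 15.26 to 15.78 on CTRL and 15.42 to 16.89 on HFD, and its mean was higher by 0.30, against 0.34 for the recruited macrophage markers. Whether the 2 lists differ was not tested.

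Neutrophil markers rose for 4 of 8 measured (median 0.62). S100a8 had 6.51 to 7.86 (median 7.11) on CTRL and 8.05 to 9.57 (median 8.33) on HFD (1.45 ± 0.28, adjusted p = 0.000293). Its partner S100a9 rose by 1.61 ± 0.31 (adjusted p = 0.000317), and the cathelicidin Camp by 1.02 ± 0.29 (adjusted p = 0.013). Camp did not pass when only these 12 arrays were fitted (adjusted p = 0.0528) or within washing batch 1 (0.83, adjusted p = 0.382). The summed neutrophil signal did not overlap between diets, at 10.39 to 10.99 on CTRL and 11.06 to 12.14 on HFD. Of 6 measured erythroid markers, 1 rose and 0 fell (median 0.52), and their summed signal was 16.64 to 17.97 on CTRL and 17.38 to 18.58 on HFD. The part of blood cells in the neutrophil values was not tested. Of 33 interferon-stimulated genes, 4 rose and 1 fell (median 0.15). Among the risers were the chemokine Cxcl10 (0.96 ± 0.22, adjusted p = 0.0023) and the GTPase Gbp2 (0.87 ± 0.21, adjusted p = 0.00371), neither of which passed in either washing batch (adjusted p = 0.0519 to 0.263).

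Of 20 measured genes of stellate cells and matrix, 11 rose and 0 fell, with a median of 0.60. Col1a1 had 7.57 to 8.80 (median 7.86) on CTRL and 8.65 to 10.55 (median 9.95) on HFD, a rise of 3.57-fold (1.83 ± 0.25, adjusted p = 1.89e-06). Col3a1 rose by 1.53 ± 0.20 (adjusted p = 6.69e-07) and Col1a2 by 1.46 ± 0.19 (adjusted p = 6.33e-07), but their other probes gave changes down to 0.23 and 0.45. The cross-linking enzyme Loxl2 (0.99 ± 0.12, adjusted p = 2.05e-07) and the basement membrane collagen Col4a1 (0.81 ± 0.13, adjusted p = 1.62e-05) rose with no overlap, although the second probe of Loxl2 gave 0.23. The summed matrix signal was 15.28 to 15.71 on CTRL and 15.70 to 16.34 on HFD.

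In fasted p110αhep-/- mice, 1 of 18 recruited macrophage markers rose and 1 fell (median 0.01), 0 of 8 neutrophil markers rose or fell (median 0.05), and 1 of 20 matrix genes rose (median 0.23), against 0.928% of all genes rising and 0.967% falling. The difference between genotypes was higher in p110αhep+/+ for 10 of 18 (2 of them Gpnmb and Mmp12, which were well above background on 0 of the 12 fasted p110αhep-/- arrays), 3 of 8 and 5 of 20 genes (1 matrix gene was lower), against 1.32% of all genes higher and 0.566% lower. It was 1.36 ± 0.40 for Trem2 (adjusted p = 0.0385), 1.27 ± 0.30 for Itgax (adjusted p = 0.00971) and 0.96 ± 0.23 for Ly6c2 (adjusted p = 0.0103). For S100a8, S100a9 and Col1a1 it was 1.39, 1.52 and 1.32 (adjusted p = 0.0386, 0.0426 and 0.0281). In fed p110αhep+/+ mice, 10 of 18, 2 of 8 and 7 of 20 of these genes rose, against 2.63% of all genes, and 1 macrophage marker fell, against 1.08%.

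**Figure D5:**
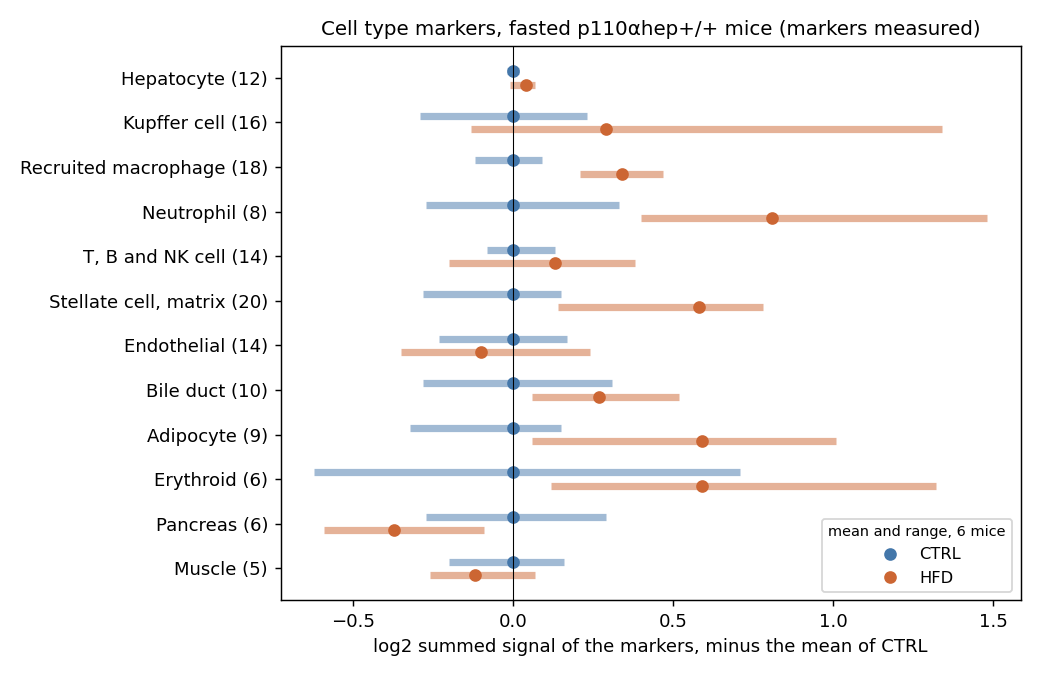
Log2 summed signal of the measured markers of 12 cell types (y axis, number of markers in brackets) in fasted p110αhep+/+ mice, minus the mean of CTRL (x axis). Points are means and bars the range of 6 mice. The ranges of recruited macrophage and neutrophil markers do not overlap between diets, and the hepatocyte sum differs by 0.04.

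Of 28 measured cell cycle genes, 9 rose, 0 fell and the median was 0.41. The proliferation antigen Mki67 had 6.29 to 6.92 on CTRL and 7.18 to 7.68 on HFD (0.81 ± 0.15, adjusted p = 0.000235), and the topoisomerase Top2a had 5.41 to 6.18 and 6.22 to 7.09 (0.78 ± 0.15, adjusted p = 0.000381). Neither overlapped, and the second probe of Top2a, a gene well above background on 3 of 6 CTRL arrays, gave 0.32. Mcm5, a subunit of the replicative helicase, had 5.91 to 7.51 and 6.82 to 8.79 (1.09 ± 0.29, adjusted p = 0.00807), and Uhrf1, which maintains DNA methylation, rose by 0.85 ± 0.24 (adjusted p = 0.0106), which did not pass when only these 12 arrays were fitted (adjusted p = 0.0629). Replicate 1 was the highest liver of its group for Mcm5, Mcm6 and Uhrf1 on either diet. Mcm6, with 0.87 ± 0.27 (adjusted p = 0.0209), lost its call without HFD replicate 1 or CTRL replicate 3, 5 or 6 (0.67 to 0.83). Mcm6 and Uhrf1 passed in neither washing batch (adjusted p = 0.0886 to 0.141), and Mcm5 did not pass within batch 1 (1.21, adjusted p = 0.133).

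The promoter windows of 22 of these 28 genes were found. A CCAAT box was in 17 of the 22, among them 8 of the 8 that rose with a window and 9 of the 14 that did not. An E2F-type motif (TTTCCCGC or TTTGGCGC, both strands) was in 4 of the 22, against 1.51% of all genes. The window of Mcm5 (GRCm38.p6, chr8:75109259-75109508, plus strand) is shown with its E2F-type motif and 2 CCAAT boxes in capitals.
Mcm5: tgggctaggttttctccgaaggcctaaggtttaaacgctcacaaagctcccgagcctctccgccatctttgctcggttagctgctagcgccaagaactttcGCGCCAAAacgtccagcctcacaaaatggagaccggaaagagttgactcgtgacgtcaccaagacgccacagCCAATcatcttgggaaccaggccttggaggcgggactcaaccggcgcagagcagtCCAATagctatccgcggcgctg

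In fed mice the cell cycle list rose for 19 of 28 genes, with a median of 0.81, and in fasted p110αhep-/- mice for 0 of 28, with a median of 0.01, against 2.63% and 0.928% of all genes. The difference between fasted and fed passed for 2 of 28 genes, lower in fasted mice (0.591% of all genes), and that between genotypes for 3, higher in p110αhep+/+ (1.32% of all genes).

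Several of the largest changes lay outside the groups above. Kbtbd11 had 7.34 to 8.24 on CTRL and 9.14 to 10.35 on HFD, a rise of 4.27-fold (2.09 ± 0.19, adjusted p = 3.11e-10). The surface protein Ly6d rose by 1.96 ± 0.35 (adjusted p = 0.000103) and Ifi27l2b, of the interferon-inducible Ifi27 family, by 1.77 ± 0.22 (adjusted p = 5.64e-07). The trefoil factor Tff3 had 7.88 to 10.39 on CTRL and 6.66 to 7.77 on HFD (-1.78 ± 0.55, adjusted p = 0.0227), a call lost without HFD replicate 3 or 4 or CTRL replicate 4 (-1.70 to -1.45) and within either washing batch (adjusted p = 0.124 and 0.287). Dct, dopachrome tautomerase, changed by -1.20 ± 0.26 (adjusted p = 0.00107), but its second probe gave 0.09 and it did not pass within washing batch 2 (-0.74, adjusted p = 0.208). Of the 12 highest rises and 12 deepest falls with separated groups, 3 had no gene symbol, and 103 of the 577 changed genes had none.

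Of 76 subunits of oxidative phosphorylation, 81 cytosolic ribosomal proteins and 38 proteasome subunits, 0 rose or fell by the criteria, and their changes lay between -0.26 and 0.24. At an adjusted p of at most 0.05 without the fold threshold, 3, 4 and 3 of them passed. Of 27 apolipoprotein and lipoprotein assembly genes and 19 clock genes, 0 rose or fell, and 5 and 4 passed without the fold threshold. Ttr, transthyretin, was higher by 0.17 ± 0.05 (adjusted p = 0.0125) among the hepatocyte markers. The other hepatocyte marker that passed without the fold threshold was lower by 0.44 (SE 0.12, adjusted p = 0.0119).

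The HFD effect in fasted p110αhep+/+ mice was then set beside the other comparisons. In fed p110αhep+/+ mice HFD changed 760 genes, and 285 were changed in the same direction in both, which is 49.4% of those changed in fasted mice and 37.5% of those changed in fed mice. A further 6 were changed in opposite directions. Genes that rose in fasted mice (median 0.78) had a median of 0.69 in fed mice, and genes that fell (median -0.75) had -0.48. In fasted p110αhep-/- mice, HFD changed 388 genes and 89 were shared in direction, 15.4% and 22.9% of the lists, with 3 opposite. The genes that rose and fell in fasted p110αhep+/+ mice had medians of 0.14 and -0.18 there. These comparisons share no samples.

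Several of the largest differences from the fed effect were in genes that HFD changed in fed mice. Igfbp1, an IGF binding protein of fasting, was at 14.30 to 14.86 on CTRL and 13.87 to 14.98 on HFD in fasted mice (-0.12 ± 0.44, adjusted p = 0.888) and rose by 3.04 ± 0.43 in fed mice (difference -3.16 ± 0.62, adjusted p = 0.00268). The keratin Krt23 (-2.44 ± 0.38, adjusted p = 0.000137), the laminin Lamb3 (-2.40 ± 0.39, adjusted p = 0.000257) and D9Wsu90e (-2.03 ± 0.30, adjusted p = 6.97e-05) also had a lower effect in fasted mice. The pseudogene Serpina4-ps1 (3.44 ± 0.80, adjusted p = 0.0139), the hepatic transcription factor Onecut1 (2.55 ± 0.68, adjusted p = 0.0328) and Cyp2c70, which makes muricholic acids (1.99 ± 0.40, adjusted p = 0.00335), fell in fed mice and had a higher effect in fasted mice. D9Wsu90e fell in fasted mice, by 1.07 on the log2 scale (adjusted p = 0.000473, and 0.0964 within washing batch 1), and the other 6 of these genes passed no test there.

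The genes with a difference between genotypes included lipid droplet genes and others. Cidec rose by 1.36 in fasted p110αhep+/+ mice and fell by 2.13 in fasted p110αhep-/- mice (difference 3.49 ± 0.59, adjusted p = 0.000448). For Ly6d the difference was 2.55 ± 0.51 (adjusted p = 0.0025), for Cidea 2.42 ± 0.69 (adjusted p = 0.0318), for Slc22a27 1.36 ± 0.37 (adjusted p = 0.0251) and for Plin2 1.08 ± 0.26 (adjusted p = 0.0108). On the other side, the difference was -1.83 ± 0.39 for Krt23 (adjusted p = 0.00444), -1.81 ± 0.52 for the lectin Clec2h (adjusted p = 0.0337), -1.75 ± 0.34 for the long non-coding RNA Dio3os (adjusted p = 0.00179) and -1.64 ± 0.29 for the Wnt inhibitor Wif1 (adjusted p = 0.000616). Of these 4, Dio3os fell in fasted p110αhep+/+ mice (-1.26 ± 0.23, adjusted p = 0.00015, with other probes up to -0.39). Wif1 (-0.57, adjusted p = 0.0428) was just under the fold threshold and passed in 7 of 27 alternative settings. In fasted p110αhep-/- mice, Slc22a27 was well above background on 0 of 6 CTRL arrays and Cidea, at means of 5.70 on CTRL and 6.23 on HFD, on 4 and 5 of 6, so the sizes of these 2 differences are uncertain. Wif1 was well above background on 3 of 6 CTRL and 0 of 6 HFD arrays of fasted p110αhep+/+ mice. The sizes of its change and of its difference are thus uncertain too. Cyp2b13, Cyp2b9 and Cyp2b10 rose in all 3 comparisons, and neither difference passed for them (adjusted p = 0.434 to 0.999).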

How the data were processed

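RNA of 48 mouse livers, 6 per group, was measured on one-colour Agilent arrays from 200 ng of total RNA. The authors deposited scanner files of Agilent Feature Extraction 10.10.1.1 with raw intensity values per spot, and a table of their own log2 values (median signal filtered, corrected for washing bath and quantile normalized), used here as an alternative.

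Control and outlier spots were left out of the median intensity, log2 was taken and spots of a probe were averaged. Probes well above background on at least 5 of 6 arrays of at least 1 group were kept (30793 of 56605, 20481 genes). The washing batch (2 batches, each with 3 of every group) was removed with limma 3.58.1 (R 4.3.3, statmod 1.5.0) protecting group means, followed by quantile normalization, lmFit with 1 mean per group over all 48 arrays, arrayWeights and eBayes. Benjamini-Hochberg adjustment covered every kept probe. Each gene is its brightest probe. Symbols come from the scanner files, updated through RefSeq accessions for 68.3% of kept probes. The fit was tested on simulated data. The number of arrays limits the precision.

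Genes named are the 12 highest rises and 12 deepest falls among called genes with separated groups, up to 6 called and the first 2 measured members of each list described, the 5 most positive and 5 most negative called genes of each difference between comparisons, and Pik3ca. Genes without a symbol are only counted, and the values of some genes the rule takes in are not reported here. The gene lists and comparisons were chosen with earlier results of these data known, and no value in the text is independent support for them. The alternatives were other signals, scalings, filters, batch terms, weights, samples, probe choices and thresholds.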

Additional observations from a re-analysis of the deposited data

Results flagged for a closer look

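Among 119 named genes in 2 groups of 6 livers, 11 of 238 sets of values had a liver far from the other 5, and chance gives about 1 in 20. HFD replicate 1 had the lowest Cyp4a10 (14.35) and Hamp2 (6.51) and the highest Elovl2 (13.83) and Uhrf1 (8.16). CTRL replicate 1 had the lowest G0s2 (13.27) and Hamp2 (9.80) and the highest Uhrf1 (6.30). HFD replicate 5 had the highest Adgre1 (10.91), HFD replicate 4 the highest Lep (7.4), HFD replicate 3 the highest Alb (18.95) and CTRL replicate 3 the lowest Alb (18.82). Quantile normalization gives each rank 1 value, and Alb held 1 rank on the other arrays of these mice, so its values carry no information on spread.

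The HFD effect differed between fasted and fed p110αhep+/+ mice, by the test of the difference, for 20 named genes. It was higher in fasted mice for Serpina4-ps1 (3.44), Onecut1 (2.55), Sqle (2.25), Cyp2c70 (1.99), Fdps (1.74) and Ly6c2 (0.77). It was lower for Igfbp1 (-3.16), Krt23 (-2.44), Lamb3 (-2.40), Fgf21 (-2.35), D9Wsu90e (-2.03), G6pc (-1.43), Cyp4a10 (-1.25), Pck1 (-1.23), Ehhadh (-1.03), Plin2 (-1.0), Txnip (-0.97), Acly (-0.84), Irs1 (-0.82) and Elovl2 (-0.68).

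The effect differed between genotypes in fasted mice for 42. It was higher in p110αhep+/+ for the lipid droplet genes Cidec (3.49), Cidea (2.42) and Plin2 (1.08), for Scd1 (2.17), and for the sterol genes Sqle (2.54), Fdps (1.93), Cyp51 (1.49), Msmo1 (1.39), Idi1 (1.24), Nsdhl (1.21) and Mvk (1.01). The same held for the immune and matrix genes Ly6d (2.55), S100a9 (1.52), S100a8 (1.39), Cxcl10 (1.44), Trem2 (1.36), Col1a1 (1.32), Gpnmb (1.30), Itgax (1.27), Ifi27l2b (1.15), Col3a1 (1.08), Col1a2 (1.02), Mmp12 (1.02), Gbp2 (1.02), Ly6c2 (0.96) and Col4a1 (0.80). It was also higher for Kbtbd11 (1.99), Lamb3 (1.86), Slc22a27 (1.36), Slc22a29 (1.27), Gstm2 (1.16), Cbr3 (0.95), Ucp2 (0.82), Tkt (0.74) and Top2a (0.74). It was lower for Krt23 (-1.83), Clec2h (-1.81), Dio3os (-1.75), Wif1 (-1.64), Cyp2c70 (-1.54), Igfbp2 (-1.38) and Ugt2b1 (-0.84). Gpnmb, Mmp12 and Slc22a29 met the filter on dim probes in HFD groups only. Gpnmb and Mmp12 were well above background on 0 of the 12 fasted p110αhep-/- arrays. Of those on CTRL, Slc22a29 and Slc22a27 were so on 0 of 6. In fasted p110αhep-/- mice, Sqle was so on 1 of 6 HFD arrays, and Cidea on 4 of 6 CTRL and 5 of 6 HFD arrays. Wif1 was so on 0 of 6 HFD arrays of fasted p110αhep+/+ mice. The sizes of these differences are uncertain. Differences of single genes were not compared across the alternatives.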

How the results depend on the processing

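The count of 577 genes for HFD in fasted p110αhep+/+ mice (373 higher, 204 lower) moved by over 1.5 times with the processed signal scaled to the 75th percentile (1113, of them 674 higher and 439 lower), with no fold threshold (3285, 1841 and 1444) and with a fold over 2 (125, 96 and 29). It was 404 to 531 within a washing batch (3 against 3), where the genes lower were 132 in batch 2. Without 1 array it lay between 513 and 660 (325 to 422 higher, 179 to 238 lower), and with a replicate block it was 570, of which 547 were among the 577. Same-numbered HFD and CTRL samples had deviations correlated at 0.01 to 0.32, and 3 of the 6 numbers matched best with their own. The labels do not call the numbers pairs, and the main fit did not take them as pairs. Whether samples of the same number share a factor was not tested. The difference between fasted and fed (182 genes) became 111 with no filter on dim probes, 117 with no array weights, 13 and 14 within washing batches 1 and 2, 483 with no fold threshold and 58 with a fold over 2, and it lay between 141 and 212 without 1 array. The difference between genotypes (386 genes) became 247 with no filter, 6 and 156 within batches 1 and 2, 1042 with no fold threshold and 113 with a fold over 2, and lay between 302 and 512 without 1 array. For fed p110αhep+/+ mice (760 genes) the values were 1194 with the processed signal, 408 within batch 2, 4908 with no fold threshold and 222 with a fold over 2, and for fasted p110αhep-/- mice (388 genes) 628 with the processed signal, 148 within batch 1, 2219 and 117. In fasted p110αhep-/- mice the count was 431 within batch 2. Fits within a batch have fewer samples, 3 mice per group in each batch, and the cause of the shifts was not tested. The diet difference on the first principal component (35.10) lay between 34.37 and 37.16 without 1 array, with an exact permutation p of 0.00216 in every setting run for it, and that on the second component between 0.23 and 4.74.

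Of 91 called genes named in the text, 33 kept direction and call in all alternatives that measured them, 17 lost the call without some array, 38 within washing batch 1 and 29 within batch 2 (54 in either). Calls lost numbered 12 with no array weights, 9 with no filter on dim probes, 8 with only the 12 arrays compared (Slco1a1, Cyp7b1, G6pc, Saa1, Saa2, Camp, Mcm6 and Uhrf1), 4 with normexp, 3 with only the 24 arrays of fasted mice and 2 (Elovl2 and Mvk) with the replicate block. Dct reversed with the probes above background on all arrays (0.10), where its other probe is the one left. When each gene was the median of its probes, the calls lost were those of Tkt, Hmgcs1, Pkm, Smad7, Col3a1, Top2a, Dct and Mvk. Among the list medians that moved were those of the neutrophil markers (0.62, 1.16 with the processed signal), the adipocyte markers (0.41, 0.05 with the median over probes), the acute phase proteins (0.21, 0.43 within batch 2) and the PPARα targets (-0.11, -0.23 with the processed signal). Of 28 named genes that did not pass, Wif1 passed in 7 of 27 settings and Irs1 in 1 (within batch 1). Of the 373 genes that rose, 30 met the filter on dim probes in HFD groups only, and of the 204 that fell, 3 in CTRL groups only.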

Other observations

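The CTRL livers differed among themselves in the genes that HFD changed most. Replicates 2 and 6 had the highest Cyp2b9 (12.55 and 12.84), Cyp2b10 (12.19 and 12.37), Cyp2b13 (6.49 and 6.42) and Cidea (14.00 and 13.18) of the 6 CTRL livers, and the lowest Hsd3b5 (11.56 and 11.48) and Slco1a1 (11.37 and 11.56). In the other 4 CTRL livers Cyp2b9 was at most 11.18 and Hsd3b5 at least 12.69. These livers and genes were chosen after their values were seen, and no test was made.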
